A study of Mus musculus with 12 samples.

Results

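Genes for protein folding, stress signalling and secretion in the endoplasmic reticulum (ER) were followed in sorted CD4+ T cells of mouse Peyer's patches. The set holds 42 genes listed by symbol for what they do. No measured value enters that rule, but the list was drawn up with earlier results of these data known. Of these, 41 were read by a probe set annotated to that gene alone, out of 19937 genes so named on the array. Sec61g was annotated only on probe sets shared with other genes and has no value here. Of the 41 genes, 40 lay above their array's median on at least 3 arrays and were tested among 11240 genes. Sec24d, a cargo-binding subunit of the vesicle coat that leaves the ER, stood at 5.85 to 6.49 on the log2 scale and did not pass that filter.

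RNA of 4 sorted groups was read on 12 Affymetrix mouse gene arrays, 3 a group. All groups came from IL-21eGFP BAC transgenic mice, whose artificial chromosome places green fluorescent protein (GFP) under control of the interleukin 21 gene, and no treatment or age is given in the sources used here. CD4+ cells negative for MHC class II and Epcam were split by GFP and by the surface receptors CXCR5, which draws cells to follicles, and PD-1, which restrains T cells. The series states as its aim the comparison of GFP+ with GFP- T follicular helper (Tfh) cells, which help B cells in follicles. The groups are GFP+CXCR5+PD1+ (GFP+ Tfh), GFP-CXCR5+PD1+ (GFP- Tfh), GFP-CXCR5+PD1- and GFP-CXCR5-PD1-. The last 2 are called the PD1- gates below, and the sorting protocol does not name the CXCR5+PD1- gate, which is known here from the sample titles. The labels do not say whether the 3 replicates of a group were separate animals, so p-values measure only the spread between these samples. Replicate 3 differed in sex from replicates 1 and 2, so it came from other animals, while the spread between replicates 1 and 2 may be technical.

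Proteins that enter the secretory pathway are threaded through the Sec61 translocon, lose their signal peptide to the signal peptidase, and fold with the help of ER chaperones and disulfide isomerases. When unfolded protein accumulates, the sensors IRE1 (encoded by Ern1), PERK (encoded by Eif2ak3) and ATF6 start the unfolded protein response, in which the factors XBP1, ATF4 and the cleaved form of ATF6 raise the genes of folding, degradation and export. The response is best known from plasma cells, which secrete antibody, and T cells that make cytokines use the same machinery.

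Promoter letters through which ATF6 and XBP1 are known to act are shown for the genes of the set that hold them. RefSeq promoter windows of assembly GRCm38.p6, from 250 bases before to 50 bases after a start site, were given for 34 of the 42 genes. Atf6, Derl1, Hyou1, Lman1, Manf, Sec11c, Sec61a1 and Ssr2 had no window and were not searched. The ER stress element, searched on both strands as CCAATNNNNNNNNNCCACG, was found in 8 of the 34 genes (23.5%), against 37 of all 27025 genes with a window (0.137%) and 0.201% of the tested genes with one. Genes and motif were both chosen for their part in the ER stress response, so the higher share is no finding of these data. Each match is a description of letters and not a measured binding site. The windows lie at chr2:34771840-34772139 for Hspa5, chr10:86705395-86705694 for Hsp90b1, chr8:84846882-84847181 for Calr, chr11:50325624-50325923 for Canx, chr15:88819396-88819695 for Creld2, chr14:118937682-118937981 for Dnajc3, chr12:17266339-17266638 for Pdia6 and chr19:6046326-6046625 for Syvn1. Hsp90b1, Calr and Canx lie on the minus strand and the other 5 genes on the plus strand. The 9 matches are printed 5′ to 3′ on the strand where the motif reads forward, with 12 bases on either side and the fixed letters in capitals.
Hspa5: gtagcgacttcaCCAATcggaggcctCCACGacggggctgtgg
Hsp90b1, as the gene: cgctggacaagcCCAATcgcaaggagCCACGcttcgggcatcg
Hsp90b1, opposite strand: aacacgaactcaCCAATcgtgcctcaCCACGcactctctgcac
Calr, opposite strand: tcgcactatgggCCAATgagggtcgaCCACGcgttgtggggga
Canx: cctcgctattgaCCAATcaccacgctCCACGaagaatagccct
Creld2, opposite strand: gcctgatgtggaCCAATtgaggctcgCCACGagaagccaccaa
Dnajc3: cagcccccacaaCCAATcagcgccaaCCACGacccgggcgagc
Pdia6: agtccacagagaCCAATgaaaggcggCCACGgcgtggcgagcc
Syvn1: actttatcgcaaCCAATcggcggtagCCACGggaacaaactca

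The matches begin between 44 bases (Syvn1) and 212 bases (the first of Hsp90b1) before the start site, so all 9 lie upstream of the transcript. Most belong to chaperones that bind unfolded chains (Hspa5, Hsp90b1) or glycoproteins (Calr, Canx). The shorter core ACGTG was found in 41.2% of the 34 genes, 21.8% of all genes and 28.6% of the tested genes with a window. The CHOP-ATF4 element TGATGNAA was found in Asns, Herpud1 and Trib3 (8.82%, against 4.51% of all genes and 2.73% of the tested ones). Of these, Asns and Trib3 are known ATF4 targets. The CCAAT box, which is also the first part of the ER stress element, was found in 76.5% of the 34 genes. Among the 26 of them without an ER stress element the share was 69.2%. The box was found in 41.1% of all genes and 41.7% of the tested ones.

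The sort markers followed the titles. Mean log2 levels in GFP+ Tfh, GFP- Tfh, CXCR5+PD1- and CXCR5-PD1- cells were 8.95, 8.21, 5.61 and 5.71 for Cxcr5, 9.02, 9.11, 7.09 and 6.87 for Pdcd1, which encodes PD-1, and 10.60, 9.96, 6.50 and 6.64 for Il21. The characteristics of the GFP+ arrays call them CXCR5- and PD1-, against their titles and these values, and the titles were followed. GFP- Tfh cells had Il21 RNA well above the PD1- gates, so GFP- does not mean without Il21 here. The 3 GFP+ arrays stood apart in spread. Their root mean square distance from the group mean over the 40 genes was 0.359, 0.344 and 0.422, against 0.131 to 0.208 on the other 9 arrays, and over all tested genes it was 0.287 to 0.405 against 0.163 to 0.204. The difference in sex was the same in every group, since the Y-linked Eif2s3y stood at 3.70 to 4.04 in replicate 3 and at 8.59 to 9.30 in the others. Groups are balanced in that respect.

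**Figure D1:**
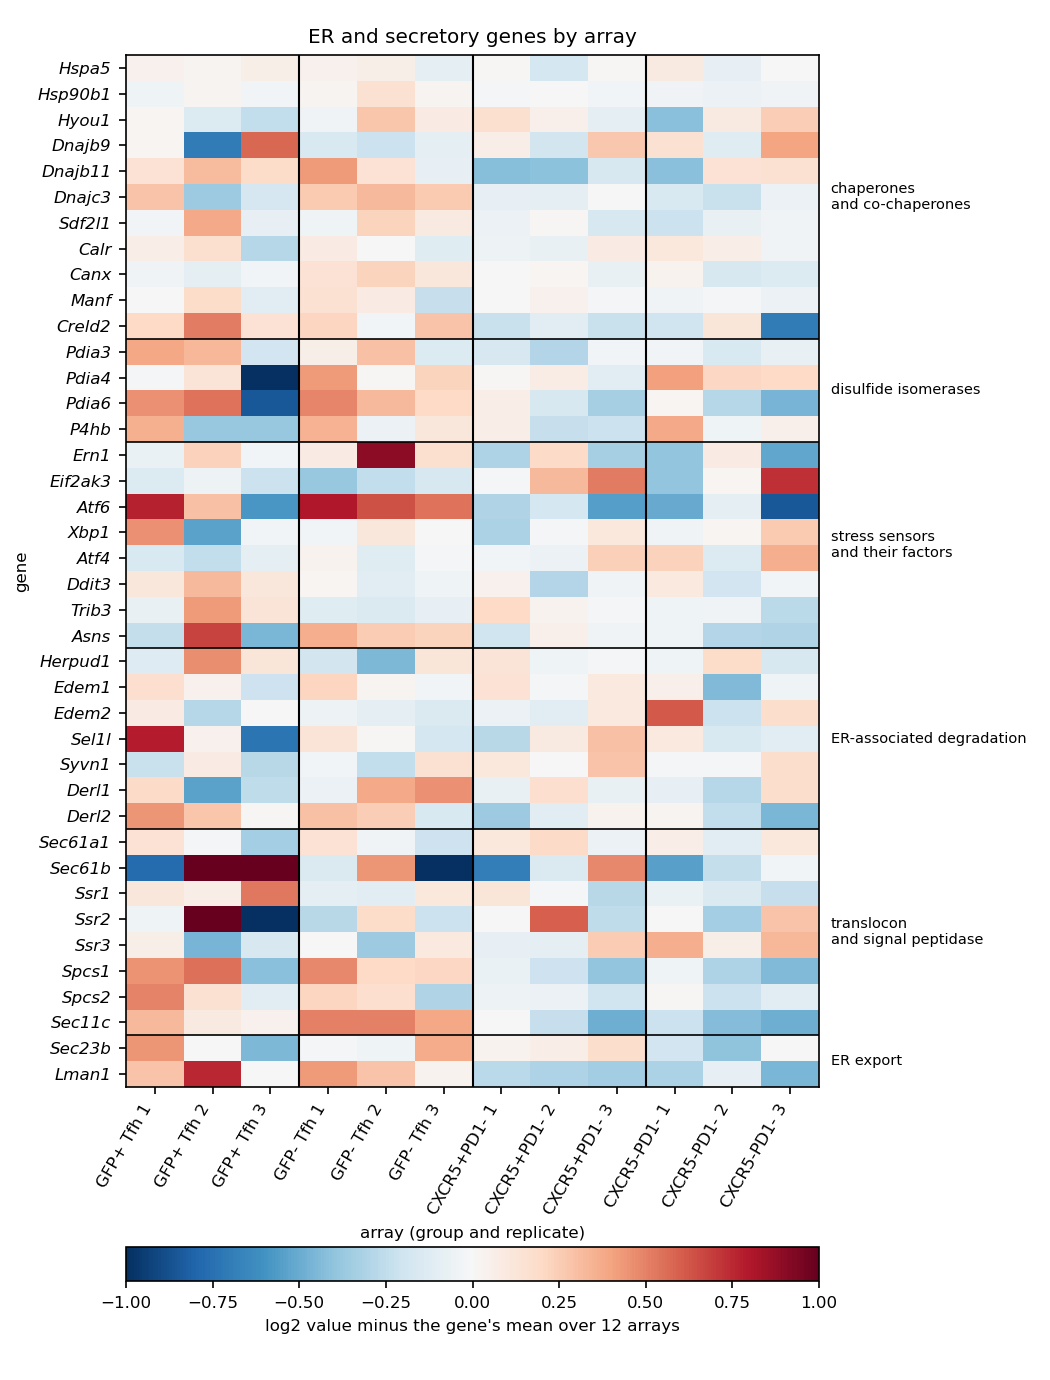
Log2 value of each of the 40 tested genes on each of the 12 arrays, minus that gene's mean over the 12 arrays, in rows by role and columns by group and replicate. Colours are limited to 1 log2 unit either way. Strong blue and red cells gather in the GFP+ Tfh columns, and Sec11c and Lman1 are red or pale in all 6 Tfh columns.

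The first comparison set both Tfh gates against both PD1- gates, 6 arrays against 6. In Tfh cells 3 genes of secretion and stress sensing rose, Sec11c by 1.53-fold, Lman1 by 1.51-fold and Atf6 by 1.76-fold, and 0 of the 40 fell. The classical chaperones did not pass the test, and Hspa5, which encodes BiP, the main ER chaperone and sensor clamp, differed by 0.04 ± 0.07 log2 units (SE; 95% interval -0.12 to 0.21). Over all tested genes 5.05% were higher and 5.33% lower in limma at adjusted p 0.05, so 3 of 40 higher lies near that background. Of the 40 differences 26 were positive, their median was 0.0652 against -0.0161 for all tested genes, and the median size was 0.1846 against 0.1231. At an unadjusted p under 0.05 limma gave 8 of the 40 genes higher and 2 lower, against 9.95% and 11.6% of all genes. In sorted bulk RNA, fewer cells of a type and less RNA per cell cannot be told apart.

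**Figure D2:**
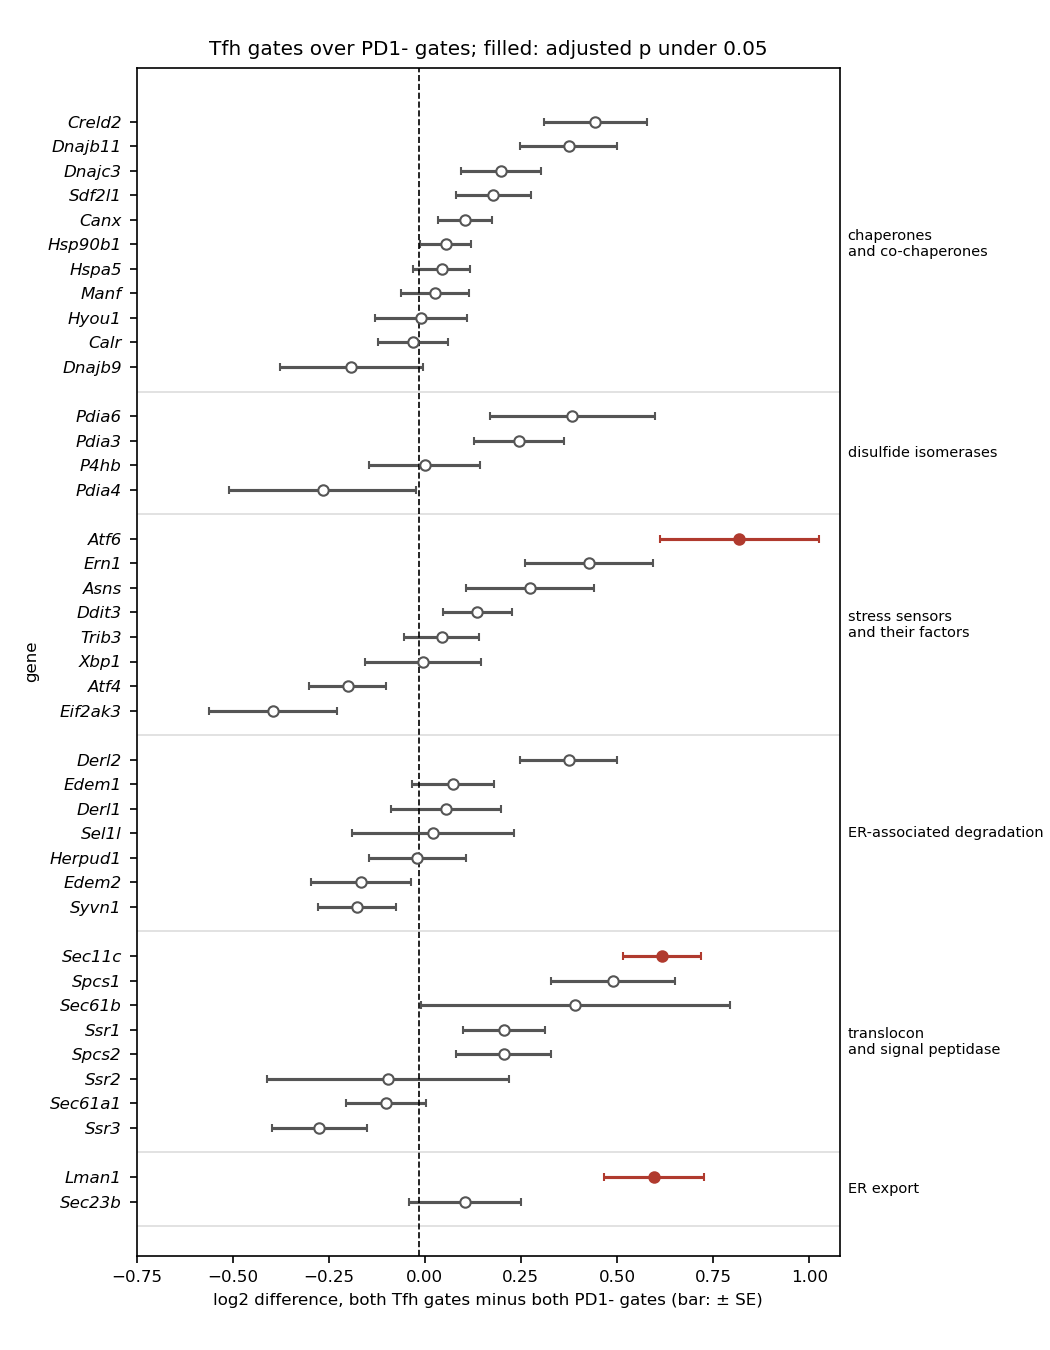
Log2 difference of both Tfh gates minus both PD1- gates for the 40 tested genes, by role, with bars of ± 1 SE. Filled red points passed the adjusted p threshold of 0.05, and the dashed line is the median of all tested genes at -0.0161. Atf6, Sec11c and Lman1 are filled, and the chaperones Hspa5, Hsp90b1, Calr and Manf lie close to the dashed line.

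Among the 8 genes of the translocon and signal peptidase, 1 rose and 0 fell. Sec11c encodes a catalytic subunit of the signal peptidase. Its log2 values were 10.18, 9.94 and 9.90 in GFP+ Tfh, 10.35, 10.36 and 10.23 in GFP- Tfh, 9.85, 9.62 and 9.36 in CXCR5+PD1- cells and 9.64, 9.42 and 9.36 in CXCR5-PD1- cells. All 6 Tfh arrays lay above all 6 PD1- arrays, with GFP- Tfh highest. The means were 10.16 ± 0.20 and 9.54 ± 0.20 (SD, n = 6 each), and the difference was 0.62 ± 0.10 (SE; adjusted p = 0.002 in limma).

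Spcs1, a small accessory subunit of the same enzyme, had 10.76, 10.86 and 9.90 in GFP+ Tfh, 10.80, 10.51 and 10.52 in GFP- Tfh, 10.25, 10.11 and 9.92 in CXCR5+PD1- and 10.27, 10.01 and 9.87 in CXCR5-PD1- cells. Of its 6 Tfh values 5 lay above every PD1- value, and GFP+ Tfh replicate 3 lay among the PD1- values. The difference of 0.49 ± 0.16 did not pass (adjusted p = 0.0813). Ssr3, a subunit of the translocon-associated protein complex, had 8.55, 8.03 and 8.33, then 8.50, 8.12 and 8.59 in the Tfh gates, and 8.41, 8.40 and 8.74, then 8.85, 8.55 and 8.82 in the PD1- gates. The groups overlapped, and the difference was -0.27 ± 0.12 (adjusted p = 0.223). Sec61b, a small translocon subunit, varied from 7.48 to 10.24 on the probe set used, and gave a difference of 0.39 ± 0.40. Its other 2 probe sets gave -0.06 and 0.18, so the sign was not the same on all 3. The other 4 tested genes, Sec61a1, Ssr1, Ssr2 and Spcs2, had differences from -0.10 to 0.21.

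Of the 2 tested genes of ER export, 1 rose. Lman1 encodes ERGIC-53, a lectin that carries glycoproteins from the ER to the Golgi. Its log2 values were 8.20, 8.67 and 7.91 in GFP+ Tfh, 8.34, 8.20 and 7.95 in GFP- Tfh, 7.64, 7.61 and 7.57 in CXCR5+PD1- and 7.60, 7.83 and 7.46 in CXCR5-PD1- cells. All 6 Tfh arrays were above all 6 PD1- arrays, at means of 8.21 ± 0.28 and 7.62 ± 0.12 (SD, n = 6 each). The difference was 0.60 ± 0.13 (adjusted p = 0.0115). Sec11c and Lman1 were the 2 of 40 genes without overlap between the sides and higher in Tfh cells, and 0 were lower without overlap, against 3.49% and 4.07% of all tested genes. Sec23b, a subunit of the inner vesicle coat, had 8.64, 8.20 and 7.74 in GFP+ Tfh, 8.19, 8.15 and 8.57 in GFP- Tfh, 8.23, 8.26 and 8.37 in CXCR5+PD1- and 8.01, 7.79 and 8.20 in CXCR5-PD1- cells. These values overlapped, with a difference of 0.11 ± 0.15 (adjusted p = 0.786).

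Among the 8 stress sensors and their factors, 1 rose and 0 fell. Atf6, the sensor that is cut in the Golgi to release a transcription factor, had 8.66, 8.18 and 7.31 in GFP+ Tfh, 8.69, 8.53 and 8.43 in GFP- Tfh, 7.59, 7.72 and 7.34 in CXCR5+PD1- and 7.39, 7.80 and 7.04 in CXCR5-PD1- cells. Of the 6 Tfh arrays 5 lay above every PD1- array, and GFP+ Tfh replicate 3 lay below 5 of the 6 PD1- arrays. The difference was 0.82 ± 0.21 (adjusted p = 0.0251). This call was lost in 7 of the 12 fits that each left out 1 array, at adjusted p 0.0504 to 0.068. The 7 arrays were GFP+ Tfh replicate 2, GFP- Tfh replicates 1 and 2, CXCR5+PD1- replicates 1 and 3, and CXCR5-PD1- replicates 1 and 3, and the difference stayed between 0.73 and 0.83 without them.

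The other sensors went different ways without passing. Ern1, whose kinase and nuclease splices the Xbp1 message, had 7.90, 8.20 and 7.94, then 8.04, 8.86 and 8.13 in the Tfh gates, and 7.66, 8.15 and 7.64, then 7.57, 8.05 and 7.45 in the PD1- gates. Its difference was 0.43 ± 0.17 (adjusted p = 0.150), and the sides overlapped. Eif2ak3, whose kinase slows translation, had 7.35, 7.43 and 7.27, then 7.11, 7.23 and 7.32 in the Tfh gates, and 7.47, 7.81 and 7.999, then 7.09, 7.50 and 8.21 in the PD1- gates. Its Tfh values were close together and its PD1- values wide, and the difference was -0.40 ± 0.17 (adjusted p = 0.189). Without CXCR5-PD1- replicate 1, the lowest PD1- array, it passed at -0.52 (adjusted p = 0.0493), in a fit that called 8.49% of all genes. The array left out is the PD1- array most against the difference, so that pass is no support for it.

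None of the downstream factors passed. Xbp1, the factor made from the spliced message, averaged 7.92 ± 0.32 in the Tfh gates and 7.92 ± 0.19 in the PD1- gates (SD, n = 6 each), a difference of -0.01 ± 0.15 with a 95% interval of -0.34 to 0.32. The array reads the whole transcript, so spliced and unspliced Xbp1 were not separated. Atf4 differed by -0.20 ± 0.10 (adjusted p = 0.286). Ddit3, which encodes CHOP, differed by 0.14 ± 0.09, and Trib3, a CHOP target, by 0.04 ± 0.10. Asns, the asparagine synthetase gene, was above the array median only on GFP+ Tfh replicate 2 and the 3 GFP- Tfh arrays. It entered the test through the side where it was high, so its difference of 0.27 ± 0.17 is no support for a difference.

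Of the 11 chaperones and co-chaperones 0 passed, 8 differences were positive and their median was 0.05. Creld2, which encodes a stress-induced isomerase-like protein, had 8.21, 8.52 and 8.15 in GFP+ Tfh, 8.22, 7.98 and 8.30 in GFP- Tfh, 7.79, 7.90 and 7.79 in CXCR5+PD1- and 7.81, 8.13 and 7.31 in CXCR5-PD1- cells. A GFP- Tfh array (7.98) and a CXCR5-PD1- array (8.13) crossed over, and the difference was 0.44 ± 0.13 (adjusted p = 0.0585). Dropping CXCR5-PD1- replicate 2, the high PD1- array, gave 0.54 (adjusted p = 0.0187), in a fit that called 8.38% of all genes. The array dropped is the PD1- array most against the difference, so that pass is no support for it. Dnajb11, a co-chaperone of BiP, had 9.58, 9.76 and 9.62, then 9.87, 9.59 and 9.36 in the Tfh gates, and 9.02, 9.03 and 9.28, then 9.02, 9.58 and 9.60 in the PD1- gates. CXCR5-PD1- replicates 2 and 3 reached the Tfh range, and the difference was 0.37 ± 0.13 (adjusted p = 0.0893).

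Dnajc3, which encodes a co-chaperone that also restrains the kinase PERK, had 10.92, 10.27 and 10.46 in GFP+ Tfh and 10.90, 10.96 and 10.90 in GFP- Tfh. The PD1- values were 10.56, 10.55 and 10.64, then 10.48, 10.41 and 10.58. GFP- Tfh lay above all PD1- arrays and GFP+ Tfh spread over the whole range, with a difference of 0.20 ± 0.10 (adjusted p = 0.321). Hspa5 spanned only 11.53 to 11.80 over the 12 arrays, and Hsp90b1, which encodes the chaperone GRP94, spanned 11.73 to 11.94. Calr and Canx, the lectin chaperones, differed by -0.03 ± 0.09 and 0.10 ± 0.07. The 4 others, Hyou1, Dnajb9, Sdf2l1 and Manf, had differences from -0.19 to 0.18.

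The 4 disulfide isomerases gave 0 calls. Pdia3, the isomerase that works with calnexin and calreticulin, had 10.71, 10.66 and 10.13, then 10.38, 10.62 and 10.18 in the Tfh gates, and 10.17, 10.03 and 10.29, then 10.30, 10.17 and 10.24 in the PD1- gates (0.24 ± 0.12, adjusted p = 0.263). Pdia6 had 8.96, 9.04 and 7.65, then 8.99, 8.83 and 8.70 in the Tfh gates, and 8.57, 8.34 and 8.17, then 8.52, 8.22 and 8.04 in the PD1- gates (0.38 ± 0.21, adjusted p = 0.353). Replicate 3 of GFP+ Tfh was the lowest of all 12 arrays for Pdia6, and the other 5 Tfh arrays lay above every PD1- array. Pdia4 had 8.61, 8.76 and 7.05, then 9.06, 8.64 and 8.86 in the Tfh gates, and 8.64, 8.70 and 8.52, then 9.04, 8.84 and 8.83 in the PD1- gates. The same array was again the lowest, and the difference of -0.27 ± 0.24 became 0.01 without it. P4hb, the founding isomerase, did not separate the sides at 0.00 ± 0.15.

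ER-associated degradation, which returns misfolded protein to the cytosol, gave 0 calls among 7 genes and a median of 0.02. Derl2, a channel component, had 8.98, 8.81 and 8.54, then 8.82, 8.78 and 8.38 in the Tfh gates, and 8.17, 8.42 and 8.57, then 8.56, 8.28 and 8.08 in the PD1- gates (0.37 ± 0.13, adjusted p = 0.0918). Syvn1, the ubiquitin ligase of the pathway, had 8.29, 8.60 and 8.24, then 8.49, 8.27 and 8.67 against 8.62, 8.51 and 8.80, then 8.50, 8.49 and 8.69 (-0.18 ± 0.10, adjusted p = 0.368). Edem2, a mannosidase that marks glycoproteins, had 7.07, 6.70 and 6.99, then 6.94, 6.90 and 6.84 against 6.93, 6.88 and 7.09, then 7.60, 6.77 and 7.16 (-0.17 ± 0.13, adjusted p = 0.556). All 3 genes overlapped between the sides. Herpud1, Edem1, Sel1l and Derl1 had differences from -0.02 to 0.07.

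**Figure D3:**
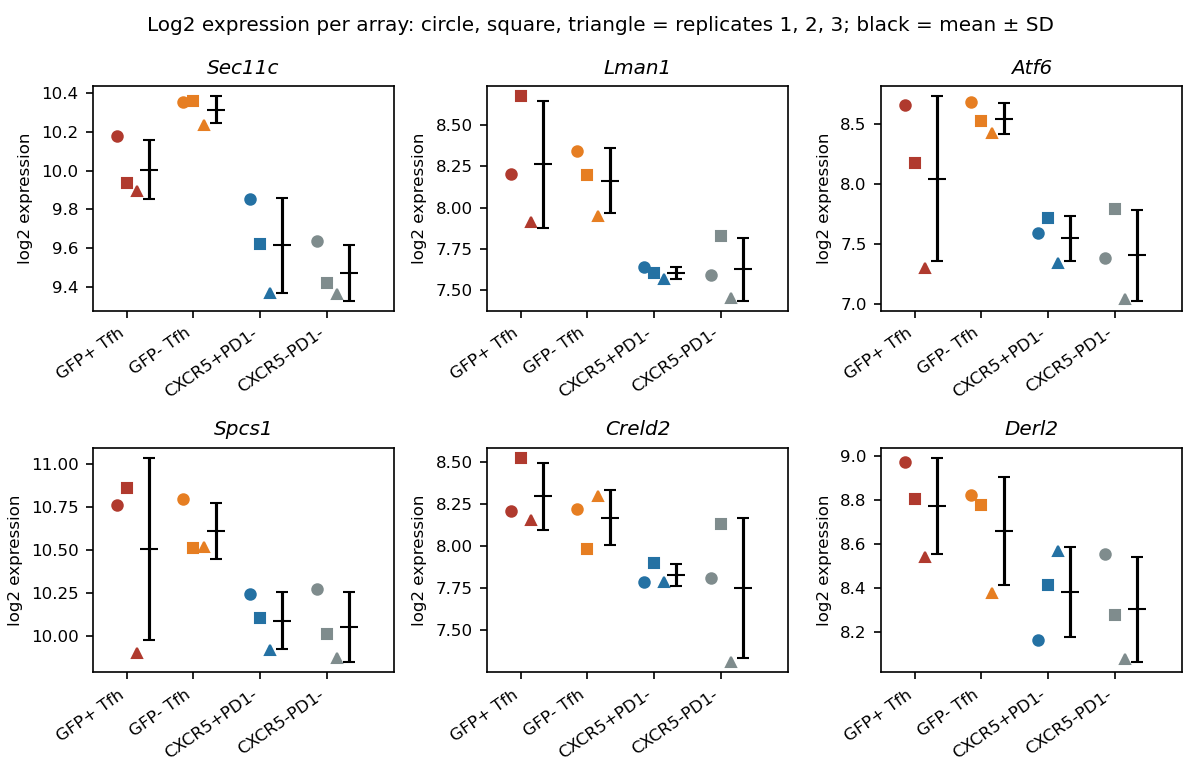
Log2 expression on each array for 6 genes in the 4 groups, with replicates 1, 2 and 3 as circle, square and triangle and black bars for mean ± SD (n = 3), on axes that do not start at 0. Sec11c and Lman1 separate the Tfh gates from the PD1- gates on every array, and the triangle of GFP+ Tfh lies low for Atf6 and Spcs1.

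Among the 12 fits that each left out 1 array, the number of calls moved most with GFP+ Tfh replicate 3. Without GFP+ Tfh replicate 3, 8 of the 40 genes rose and 0 fell, against 7.29% higher and 6.01% lower of all genes in that fit. Sec11c (0.64 ± 0.11, adjusted p = 0.00184), Lman1 (0.68 ± 0.12, adjusted p = 0.00212) and Atf6 (1.004 ± 0.146, adjusted p = 0.000837) were joined by Spcs1 (0.64 ± 0.10, adjusted p = 0.00177), Pdia6 (0.61 ± 0.11, adjusted p = 0.00387), Pdia3, Derl2 and Creld2 (adjusted p = 0.0382, 0.0418 and 0.0444). The median over the 40 genes was then 0.1301, against -0.0251 over all genes. On that array 8 of the 40 genes lay over 0.5 log2 units from their group mean, against 3 and 6 on the other GFP+ arrays and 0 to 2 on the other 9. For Atf6, Lman1, Sec11c and Pdia6 replicate 3 was the lowest of its group in every group. Leaving it out of GFP+ Tfh alone keeps the replicate 3 arrays of the PD1- gates, so sex is no longer balanced. How much of the wider differences comes from that was not tested, nor was what set the array apart.

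**Figure D4:**
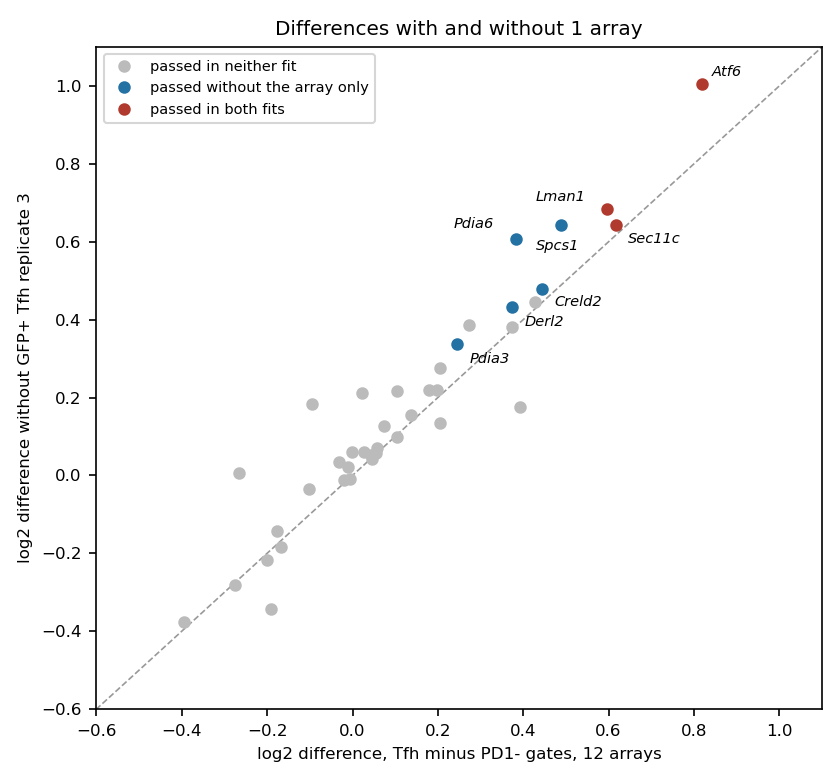
Log2 difference of Tfh gates minus PD1- gates for the 40 tested genes, with all 12 arrays on the x axis and without GFP+ Tfh replicate 3 on the y axis, with the line of equality dashed. The 3 red genes passed in both fits, and the 5 blue genes, among them Pdia6 and Spcs1, passed only without the array.

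None of the 32 tested genes with a promoter window passed in this comparison, since Sec11c, Lman1 and Atf6 had no window. For the 8 genes with an ER stress element 6 differences were positive and the median was 0.0795, against 0.0897 for the 24 without the element. In the comparisons described next the medians with and without the element were -0.0912 and 0.0355 for GFP+ over GFP- Tfh, 0.0714 and 0.0348 for CXCR5+PD1- over CXCR5-PD1-, 0.1783 and 0.026 for GFP- Tfh set over CXCR5-PD1-, and 0.0354 and 0.1964 where GFP+ Tfh was set over CXCR5-PD1-. None of the 32 passed in any of the 5 comparisons. These are descriptions with no test. In the first comparison Creld2 had the lowest adjusted p among the 8, and Syvn1 the lowest difference, at -0.18.

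The second comparison, which the series names as its aim, set GFP+ Tfh over GFP- Tfh, 3 arrays against 3. None of the 40 genes passed in limma, where 5 of all tested genes did (0.0445%). At an unadjusted p under 0.05, 0 of the 40 were higher and 2 lower, against 7.37% of all genes in either direction. The median was -0.0227 for the 40 genes and -0.0181 for all genes. That of the 40 genes had no stable sign: it was 0.0741 without GFP+ Tfh replicate 3, 0.0113 without GFP- Tfh replicate 1, and -0.0915, -0.0626 and -0.0518 without GFP+ replicates 2 and 1 and GFP- replicate 3. Values of GFP+ and GFP- Tfh did not overlap for 4 of the 40 genes, near the 8.74% of all genes. None of the 4 passed: the differences were 0.22 ± 0.13 for Ddit3 (adjusted p = 0.721), 0.27 ± 0.14 for Trib3 (adjusted p = 0.683), -0.21 ± 0.10 for Canx (adjusted p = 0.677) and -0.31 ± 0.14 for Sec11c (adjusted p = 0.674).

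The 2 genes under the unadjusted threshold were Dnajc3, at -0.37 ± 0.15 (adjusted p = 0.618), and Derl1, a channel component of degradation, at -0.46 ± 0.20 (adjusted p = 0.668). Derl1 had 9.20, 8.48 and 8.75 in GFP+ Tfh and 8.95, 9.39 and 9.47 in GFP- Tfh, so the first GFP+ array overlapped. Without GFP+ Tfh replicate 1, whose Dnajc3 value matched the GFP- arrays, Dnajc3 passed at -0.55 (adjusted p = 0.0362). It was 1 of the 40 genes, near the 2.11% of all genes called in that fit. The array left out is the GFP+ array most against the difference, so that pass is no support for it. The precision differed widely between genes. Among chaperones the 95% interval of GFP+ minus GFP- Tfh was -0.19 to 0.27 for Hspa5, -0.29 to 0.12 for Hsp90b1 and -0.60 to 0.14 for Hyou1. For the co-chaperone Dnajb9 it was -0.45 to 0.70. Among sensors and factors it was -1.14 to 0.14 for Atf6, -0.85 to 0.19 for Ern1, -0.53 to 0.40 for Xbp1 and -0.44 to 0.18 for Atf4. The roles thus overlapped in precision. The widest were those of Sec61b (-0.25 to 2.24), Ssr2 (-0.86 to 1.09) and Pdia4 (-1.46 to 0.04).

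In the third comparison, CXCR5+PD1- over CXCR5-PD1-, limma called 0 of the 40 genes and 0 of all tested genes (0%). At an unadjusted p under 0.05 there were 0 of the 40 and 1.22% of all genes. The 40 differences ran from -0.29 for Dnajb11 to 0.29 for Sec23b, with a median of 0.0599 against 0.0128 for all genes. Sec11c differed by 0.14 ± 0.14 (95% interval -0.17 to 0.46), Lman1 by -0.02 ± 0.18 (-0.42 to 0.38) and Atf6 by 0.14 ± 0.29 (-0.50 to 0.78). Lman1 changed sign when CXCR5-PD1- replicate 2 was left out, and Atf6 when CXCR5-PD1- replicate 3 was.

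Each Tfh gate was also set against CXCR5-PD1- cells. Both comparisons use the same 3 control arrays, so their values are given side by side only. In GFP- Tfh 1 of the 40 genes was higher and 0 lower (2.22% and 1.60% of all genes), and in GFP+ Tfh 0 were higher and 0 lower (2.45% and 3.75% of all genes). At an unadjusted p under 0.05 the counts were 8 higher and 0 lower in GFP- Tfh, and 6 higher and 3 lower in GFP+ Tfh. Over all genes these shares were 7.26% and 5.92% in GFP- Tfh, and 7.40% and 11.3% in GFP+ Tfh. Sec11c rose by 0.84 ± 0.14 in GFP- Tfh (1.79-fold, adjusted p = 0.00593) and stood 0.53 ± 0.14 above the controls in GFP+ Tfh (adjusted p = 0.0509). Atf6 stood 1.14 ± 0.29 (adjusted p = 0.0554) and 0.64 ± 0.29 (adjusted p = 0.264) above them.

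Lman1 differed from CXCR5-PD1- cells by 0.54 ± 0.18 in GFP- Tfh (adjusted p = 0.175) and 0.63 ± 0.18 in GFP+ Tfh (adjusted p = 0.0686). For Dnajc3 the values were 0.42 ± 0.15 (adjusted p = 0.183) and 0.06 ± 0.15 (adjusted p = 0.897), and for Pdia4 they were -0.05 ± 0.34 (adjusted p = 0.988) and -0.76 ± 0.34 (adjusted p = 0.261). Without GFP+ Tfh replicate 3, 4 genes passed in GFP- Tfh (Atf6, Pdia6, Sec11c and Spcs1) and 5 in GFP+ Tfh (the same 4 and Lman1, adjusted p = 0.0153), against 6.13% and 7.07% of all genes. Leaving out GFP+ Tfh replicate 1 gave 3 genes in GFP- Tfh (Atf6, Dnajc3 and Sec11c) and 1 in GFP+ Tfh (Sec61b), against 5.09% and 10.2% of all genes. Leaving out CXCR5+PD1- replicate 1 or 3 gave 1 in GFP+ Tfh (Sec11c), against 5.12% and 5.2% of all genes. GFP- Tfh values do not change when a GFP+ array is left out, but the shared spread does. In the fit without GFP+ Tfh replicate 3 the GFP+ Tfh and CXCR5-PD1- arrays are not balanced in sex.

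The wider ER machinery was read from 7 further lists of 127 genes, of which 119 were on the array and 112 were tested. In both Tfh gates over both PD1- gates 3 of the 112 rose and 4 fell, against 5.05% and 5.33% of all tested genes. Together 6.25% of the 112 were called, against 10.4% of all tested genes, and the median of the 112 was -0.0016. Spcs3, another accessory subunit of the signal peptidase, rose by 0.57 ± 0.11 (adjusted p = 0.00474). The 5 subunits were put side by side after their values were seen: Sec11c rose, as did Spcs3, Spcs1 and Spcs2 stood at 0.49 ± 0.16 and 0.21 ± 0.12 without passing, and Sec11a, the alternative catalytic subunit, stood at -0.46 ± 0.15 (adjusted p = 0.0797). Sec11a had 9.93, 9.89 and 9.01 in GFP+ Tfh and 10.08, 9.86 and 9.92 in GFP- Tfh, and its PD1- values were 10.08 to 10.40.

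Stt3b, a catalytic subunit of the oligosaccharyltransferase that adds N-glycans, fell by 1.20 ± 0.12 on the log2 scale (0.436-fold, adjusted p = 7.6e-05). Its values were 8.45 to 9.12 on the 6 Tfh arrays and 9.82 to 10.27 on the 6 PD1- arrays, far apart. Stt3a, the catalytic subunit that sits at the translocon, differed by -0.08 ± 0.10 (adjusted p = 0.769). Sec63, which brings BiP to the translocon, fell by 0.70 ± 0.13 (adjusted p = 0.00517), with Tfh arrays at 7.74 to 8.66 and PD1- arrays at 8.89 to 9.25.

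Fkbp2, a prolyl isomerase of the ER, rose by 0.61 ± 0.13 (adjusted p = 0.00926). Bcl2l11, which encodes the death factor BIM and is a known CHOP target, fell by 1.12 ± 0.19 (adjusted p = 0.00233). Slc3a2 rose by 0.61 ± 0.09 (adjusted p = 0.00132) while Slc7a5 fell by 0.45 ± 0.11 (adjusted p = 0.0232), although their proteins are the heavy and light chain of 1 amino acid transporter. The lists of degradation and of export and retrieval genes, and a separate list of cytosolic heat shock genes, gave 0 calls among 19, 18 and 8 tested genes, with medians of -0.05, -0.08 and 0.07. In GFP+ over GFP- Tfh 0 of the 112 passed, and their median was -0.0906. Over CXCR5-PD1- cells 1 was higher (Slc3a2) and 1 lower (Stt3b) in GFP- Tfh, and 1 was higher (Spcs3) and 4 lower (Stt3b, Sec63, Bcl2l11 and Slc7a5) in GFP+ Tfh. Of all tested genes 2.22% were higher and 1.60% lower in GFP- Tfh, and 2.45% and 3.75% in GFP+ Tfh.

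Markers of other cells were read because plasma cells are rich in these genes. Of 11 plasma cell markers on the array 5 lay above the array median on 0 arrays and 2 on all 12. Jchain stood at 3.92 to 4.42, and Sdc1 and Tnfrsf17 were below the median on every array. The mean level of the 11 was 6.08 to 6.28 in GFP+ Tfh, 6.03 to 6.24 in GFP- Tfh, 6.17 to 6.30 in CXCR5+PD1- and 6.07 to 6.14 in CXCR5-PD1- cells, ranges that overlap between Tfh and PD1- gates, and 0 of its 6 tested genes passed in the first comparison. Epithelial markers gave 0 calls among 2 tested genes, and myeloid markers 0 among 5. Of 10 B cell markers on the array 3 were tested, and all 3 differences were positive in the first comparison, with a median of 0.1775. The B cell factor Pax5 was called there, at 0.30 ± 0.07 (adjusted p = 0.0193), and in GFP+ Tfh over CXCR5-PD1- cells, at 0.47 ± 0.10 (adjusted p = 0.0171). Its levels were 6.04 to 6.59, next to the array median, and Ms4a1 stood at 4.32 to 4.78. Of the 10 B cell markers 0 lay above the array median on all 12 arrays. The 3 tested ones may have entered the test through the side where they were high. Their signs and the calls of Pax5 are therefore no support for a difference. The part of B cell RNA in the results was not tested.

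Mean levels of markers of other T cells differed between some gates, and whether the numbers of these cells did was not tested. Markers of CD8, NK and gamma delta T cells averaged 5.65 to 5.70 in GFP+ Tfh and 5.83 to 5.87 in GFP- Tfh, and 5.97 to 6.30 and 6.04 to 6.49 in CXCR5+PD1- and CXCR5-PD1- cells, with 1 of 5 tested genes, Cd8b1, lower in Tfh cells (-0.46 ± 0.13, adjusted p = 0.0478). Regulatory T cell markers averaged 7.99 to 8.40 in GFP+ Tfh, 8.998 to 9.16 in GFP- Tfh, 8.02 to 8.54 in CXCR5+PD1- and 8.17 to 8.70 in CXCR5-PD1- cells. In Tfh over PD1- gates Ikzf2 and Ctla4 rose and Il2ra and Foxp3 fell, and in GFP+ over GFP- Tfh Il2ra fell by 2.72 ± 0.28 (adjusted p = 0.00451). The part of these cells in the differences of Sec11c, Lman1 and Atf6 was not tested.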

How the data were processed

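Per the labels' protocols, total RNA (RIN at least 9.2) was turned into cDNA with a whole-transcript kit and hybridised to Affymetrix mouse gene arrays. The deposited table holds log2 values, which the authors made by RMA (oligo), per the submitters' processing notes. RMA makes the arrays' distributions alike and compresses low signals, so differences near the array median (6.34 to 6.45) can be understated. No genome build is named in these sources.

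Of 34760 probe sets 21640 had 1 gene symbol, 1321 had several and 11799 were unnamed here, and symbols were updated through RefSeq's GRCm38.p6 gene table (21553 matched, 87 kept the older symbol). Where several probe sets read a gene (954 genes), the brightest on average was kept. Genes above the array's median on at least 3 arrays were tested, which left out 8697. All 12 columns were mapped to samples by title. The 12 arrays were fitted together with a coefficient for each group (limma 3.58.1, R 4.3.3; lmFit, eBayes; 8 residual degrees of freedom, moderated to 11.5), and 5 comparisons were taken as contrasts. P-values were adjusted by Benjamini and Hochberg's method over the tested genes, with a threshold of 0.05. The code was tested on simulated data.

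The members and all gene lists were chosen with earlier results of these data known. Values on every array are given for genes past the threshold in any comparison and for the 3 genes of each role with the smallest p in the first comparison. Of each wider list up to 4 genes with the smallest p are named, and Ssr2, Derl1 and the signal peptidase subunits were singled out after their values were seen, as were Stt3a and the genes named as markers. Promoter letters were counted with no test, and protein ends were not analysed here. Same-numbered samples deviated together in CXCR5+PD1- over CXCR5-PD1- (correlations of 0.21 to 0.353, from the data and not the labels), while each of the other comparisons had a pair under 0.1. Alternatives changed the filter, moderation, weights, normalisation, probe set rule, block and arrays.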

Additional observations from a re-analysis of the deposited data

How the results depend on the processing

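Sec11c and Lman1 passed in all 21 alternatives for both Tfh gates over both PD1- gates, Sec11c in all 22 for GFP- Tfh over CXCR5-PD1-, and Atf6 in 14 of 21. With 1 weight per array, which gave GFP+ Tfh replicates 1 and 3 weights of 0.266 and 0.226, 11 of the 40 genes passed in the first comparison (10 higher, 1 lower), 5 in GFP- Tfh and 7 in GFP+ Tfh over CXCR5-PD1-, and of all genes 1981 (main 1167), 912 (main 429) and 1411 (main 697), and 95 in GFP+ over GFP- Tfh (main 5). With 1 weight per group, 4 of the 40 passed in GFP- Tfh over CXCR5-PD1-, and of all genes 791 there, 314 in GFP+ Tfh over CXCR5-PD1- and 3 in GFP+ over GFP- Tfh. Replicates 1 and 2 alone gave 7 of the 40 and 870 of all genes in the first comparison, and of all genes 266 and 392 in GFP- and GFP+ Tfh over CXCR5-PD1- and 0 in GFP+ over GFP- Tfh. The 2 groups alone gave 2 of the 40 and 665 of all genes in GFP- Tfh, 255 of all genes in GFP+ Tfh, both over CXCR5-PD1-, and 0 in GFP+ over GFP- Tfh. The filter at the 70th percentile kept 38 of the genes and gave 2 and 1 of them in GFP- and GFP+ Tfh over CXCR5-PD1-. In the first comparison it gave 4 of the 38 and 15.9% of all genes (main 10.4%). Cyclic loess and averaged probe sets gave 1 of the 40 each in GFP+ Tfh over CXCR5-PD1-. With the replicate block, chosen only as an alternative since no label explains the numbers, 5 of the 40 passed in the first comparison (Ern1, adjusted p = 0.0124, and Spcs1, 0.0282, were added), 3 in GFP- Tfh (Ern1, 0.0164, among them) and 2 in GFP+ Tfh over CXCR5-PD1-, against 1247, 544 and 814 of all genes, and it changed no count in the other comparisons by over 1.5 times.

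Leaving out each array in turn gave 2 to 8 of the 40 genes and 883 to 1495 of all genes in the first comparison, 0 to 1 and 3 to 237 in GFP+ over GFP- Tfh, 0 and 0 in CXCR5+PD1- over CXCR5-PD1-, 1 to 4 and 228 to 689 in GFP- Tfh over CXCR5-PD1-, and 0 to 5 and 348 to 1147 in GFP+ Tfh over CXCR5-PD1-. The cause was not tested, and none of these alternatives moved the median of all genes by over 0.1. Of the 40 genes 13 changed sign under at least 1 alternative in the first comparison, 22 in GFP+ over GFP- Tfh, 21 in CXCR5+PD1- over CXCR5-PD1-, and 13 and 16 in GFP- and GFP+ Tfh over CXCR5-PD1-, and 0 of these were called with all 12 arrays. Among the genes named for their p, leaving out single arrays took Pdia4 from -0.42 to 0.0065 (without GFP+ Tfh replicate 3) and Sec23b from -0.0063 (without GFP+ Tfh replicate 1) to 0.22 in the first comparison, Lman1 from -0.11 (without GFP+ replicate 2; -0.0085 without GFP- replicate 3) to 0.27 in GFP+ over GFP- Tfh, and Lman1 from -0.11 to 0.079 (without CXCR5-PD1- replicate 2) and Atf6 from -0.042 (without CXCR5-PD1- replicate 3) to 0.33 in CXCR5+PD1- over CXCR5-PD1-. With 3 arrays a group, changes of the size seen for most of these genes cannot be resolved.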

Other observations

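Sec11c and Lman1, the 2 genes of the set with no overlap between Tfh and PD1- arrays, are near neighbours in the RefSeq gene table of GRCm38.p6. Between them lie 6 genes, of which 3 are protein-coding (Grp, Rax and Cplx4), and 0 of the 6 passed the filter and were tested. This was noticed after the values were seen, and no test was made of it.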
